A study of Homo sapiens with 12 samples.

Results

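The expression of 8 transcription factor genes that pattern the forebrain, OTX1, OTX2, SP8, NR2E1, NR2F1, NR2F2, FEZF1 and LHX2, was examined in human neural progenitor cells (NPCs) lacking the H3K27 demethylases JMJD3 and UTX. These 8 genes were chosen by name from the 58302 genes counted, with measured values of these samples already known, so their values are given as a description and carry no test. All 8 were among the 13454 genes tested, which averaged 20 counts or more across the 12 samples. The expression of such factors in overlapping domains sets up the regions of the early forebrain. OTX1 and OTX2 are homeodomain factors of the anterior neural plate, and OTX2 marks forebrain and midbrain against hindbrain. LHX2 is a LIM homeodomain factor of the cortex and eye field, FEZF1 is a zinc finger repressor of the anterior forebrain, and SP8 is a zinc finger factor of the rostral signalling centre and of some interneurons. NR2E1 (TLX), NR2F1 (COUP-TFI) and NR2F2 (COUP-TFII) are orphan nuclear receptors: NR2E1 maintains neural stem cells, and the COUP-TFs pattern the cortex along its rostrocaudal axis.

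The samples were derived from H1, a human embryonic stem cell line, in 6 groups with 2 samples sequenced per group. NPCs at passage 2 (P2), NPCs at passage 4 (P4) and cells at day 28 (D28) were included, each as wild type (WT) and double knockout (dKO). The D28 cells are P2 NPCs after 28 days in medium without the mitogens FGF2 and EGF and with GDNF, BDNF and cAMP. The dKO cells carry a deletion in the catalytic JmjC domain of both UTX (KDM6A) and JMJD3 (KDM6B), which remove the repressive chromatin mark H3K27me3. The labels name passage 4 but no other passage, and passage 2 was taken from the study's methods. The labels do not say whether the samples of a group came from separate cultures, and they name no clone or batch. The spread between samples may therefore be technical, and groups and batches cannot be told apart.

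Totals ran from 756942 counts in a WT P2 sample to 10601172 in a WT-D28 sample, and the P2 samples were the shallowest. At these raw totals 3 counts correspond to between 0.283 and 3.96 counts per 1e6, for counting error alone. The CPM of genes (counts per 1e6) were scaled with TMM library sizes instead. The targeted genes were still counted in dKO cells. KDM6A had 61.4 and 54.4 CPM in WT against 39.8 and 38.9 CPM in dKO NPCs at P2, 50.4 and 53.9 against 31.9 and 27.7 CPM at P4, and 44.3 and 49.0 against 59.4 and 32.4 CPM at day 28. KDM6B had 157 and 184 CPM in WT against 155 and 159 CPM in dKO NPCs at P2, 117 and 127 against 188 and 184 CPM at P4, and 205 and 189 against 146 and 152 CPM at day 28. Counts over whole genes do not show a deletion within them, so they do not check the genotype labels. Summed over 9 markers, neural progenitor genes had 4415 to 8710 CPM in all 12 samples. VIM alone had 1852 to 4865 CPM, the most of these markers in every sample. In WT-D28 cells PAX6 and MKI67 had means of 11.8 and 113 CPM, against 283 and 552 CPM in WT NPCs at P2. FABP7 was higher, with a mean of 420 against 120 CPM. The pluripotency genes POU5F1 and NANOG were at 0 in every group. The 5 pluripotency markers summed to between 90.5 and 131 CPM at P2. At P4 they summed to 1.67 and 1.28 CPM in WT against 34.4 and 37.8 CPM in dKO NPCs, and at day 28 to 0.960 and 0.604 against 47.0 and 86.3 CPM. Of these markers, LIN28A had 79.9 to 87.5 CPM at P2, 31.4 and 33.8 CPM in dKO NPCs at P4 and 32.2 and 80.3 CPM in dKO-D28 cells. It had at most 1.002 CPM in WT NPCs at P4 and WT-D28 cells. The dKO-D28 samples differed most from each other in rank, with a Spearman correlation of 0.959 across genes, and 5.91% of the genes tested differed between them by more than 2-fold, against 0.230% between the WT-D28 samples. In WT NPCs at P2 this share was 7.77%.

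The 8 genes lie on 7 chromosomes of hg38 (GENCODE v44 coordinates). OTX1 (ENSG00000115507) spans 63050057 to 63057836 of chromosome 2, NR2F1 (ENSG00000175745) 93583222 to 93594611 of chromosome 5, and NR2E1 (ENSG00000112333) 108166022 to 108188805 of chromosome 6. SP8 (ENSG00000164651) spans 20782279 to 20786886 and FEZF1 (ENSG00000128610) 122301303 to 122310691 of chromosome 7. LHX2 (ENSG00000106689) spans 124001670 to 124033301 of chromosome 9, OTX2 (ENSG00000165588) 56799905 to 56816693 of chromosome 14, and NR2F2 (ENSG00000185551) 96325938 to 96340263 of chromosome 15. OTX2, SP8 and FEZF1 are on the reverse strand. In FEZF1, 26.6% of the exonic bases are also exonic in its antisense gene FEZF1-AS1. NR2F1 shares 3.61% of its exonic bases with NR2F1-AS1, and LHX2 shares 4.21% with an unnamed antisense gene. The library kit does not mark strand, so reads from these stretches cannot be assigned to either gene with certainty.

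The promoters of 6 members are shown because these members were among those with a common direction at day 28 or in dKO cells. Each sequence runs 5′ to 3′ from 250 bases before to 50 bases after the first start that the RefSeq table (GRCh38.p14) lists for the gene, and all 8 members had an entry. For OTX2, FEZF1 and LHX2 this start lies inside the GENCODE span of the gene. Capitals mark GGGCGG, the GC box that SP-type zinc fingers bind, TAATCC, the OTX core motif, TAATTA, a LIM homeodomain core motif, and AGGTCA, a recognition motif of nuclear receptors, each searched on both strands. OTX2, SP8, FEZF1 and LHX2 were lower in WT-D28 cells than in WT NPCs at P2 and higher in dKO-D28 than in WT-D28 cells. OTX1 had the same directions, but it was not called lower in WT-D28 cells and its sequence is not shown.
OTX2 (chr14:56810430-56810729, reverse strand): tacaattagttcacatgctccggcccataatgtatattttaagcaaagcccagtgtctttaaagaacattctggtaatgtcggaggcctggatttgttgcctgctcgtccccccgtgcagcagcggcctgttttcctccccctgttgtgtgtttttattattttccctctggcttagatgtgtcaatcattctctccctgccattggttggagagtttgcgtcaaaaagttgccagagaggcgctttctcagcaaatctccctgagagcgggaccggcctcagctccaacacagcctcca
SP8 (chr7:20786837-20787136, reverse strand): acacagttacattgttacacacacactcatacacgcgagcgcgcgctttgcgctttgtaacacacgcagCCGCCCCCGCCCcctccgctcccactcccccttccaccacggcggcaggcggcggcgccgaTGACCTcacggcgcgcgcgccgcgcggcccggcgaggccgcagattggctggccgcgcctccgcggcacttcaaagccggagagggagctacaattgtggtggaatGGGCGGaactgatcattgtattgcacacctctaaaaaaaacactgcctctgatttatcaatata
FEZF1 (chr7:122304701-122305000, reverse strand): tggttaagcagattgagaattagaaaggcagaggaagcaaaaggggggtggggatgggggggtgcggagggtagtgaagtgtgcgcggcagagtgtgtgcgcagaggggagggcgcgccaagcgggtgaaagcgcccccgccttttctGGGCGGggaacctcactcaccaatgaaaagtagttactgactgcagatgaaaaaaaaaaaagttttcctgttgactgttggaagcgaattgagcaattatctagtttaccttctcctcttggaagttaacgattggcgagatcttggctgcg
LHX2 (chr9:124011518-124011817, forward strand): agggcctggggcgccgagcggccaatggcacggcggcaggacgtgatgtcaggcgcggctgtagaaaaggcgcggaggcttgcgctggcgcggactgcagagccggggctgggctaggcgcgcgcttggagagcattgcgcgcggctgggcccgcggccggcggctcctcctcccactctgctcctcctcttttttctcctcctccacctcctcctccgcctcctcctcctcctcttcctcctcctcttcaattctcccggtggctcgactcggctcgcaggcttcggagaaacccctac
NR2E1 and NR2F1 were lower in dKO than in WT cells at P2, P4 and day 28.
NR2E1 (chr6:108165772-108166071, forward strand): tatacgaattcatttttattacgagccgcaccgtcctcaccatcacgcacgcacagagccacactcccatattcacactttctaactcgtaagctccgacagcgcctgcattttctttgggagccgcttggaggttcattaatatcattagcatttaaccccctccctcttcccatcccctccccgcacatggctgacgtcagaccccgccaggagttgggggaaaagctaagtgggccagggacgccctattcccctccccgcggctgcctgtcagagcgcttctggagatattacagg
NR2F1 (chr5:93582972-93583271, forward strand): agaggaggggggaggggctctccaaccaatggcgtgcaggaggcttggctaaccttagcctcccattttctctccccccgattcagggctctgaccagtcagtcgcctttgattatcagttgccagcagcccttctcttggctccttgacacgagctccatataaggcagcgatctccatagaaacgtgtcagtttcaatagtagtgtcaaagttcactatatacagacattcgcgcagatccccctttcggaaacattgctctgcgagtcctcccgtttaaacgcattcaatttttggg

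The SP8 window held 3 GC boxes and 1 AGGTCA, and the FEZF1 window held 1 GC box. The windows of OTX2, LHX2, NR2E1 and NR2F1 held none of the 4 motifs. The OTX1 window, which is not shown, held 6 GC boxes and 34 CpG dinucleotides. Among the 35116 promoter windows of the same length in the RefSeq table, 45% held GGGCGG, 13.8% AGGTCA, 6.36% TAATCC and 4.84% TAATTA. CpG dinucleotides numbered 33 in SP8, 30 in LHX2, 17 in NR2E1, 14 in FEZF1, 12 in NR2F1 and 9 in OTX2, against a median of 14 over all windows. The 6 windows shown thus shared no motif of those searched, and they ranged from CpG-poor to CpG-rich. At a second listed start, the NR2E1 window held 1 GC box and 1 AGGTCA, and those of OTX2, FEZF1 and NR2F1 held none of the motifs.

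The effect of the double knockout was compared at each stage. At P2, 0 members were called higher in dKO NPCs, where 2.59% of all genes tested were, and 2 were called lower, NR2E1 and NR2F1, where 1.83% of all genes were. Calls required an unadjusted p under 0.05 with a change of more than 2-fold in the quasi-likelihood test of edgeR. At P4, 2 members were called higher, OTX2 and FEZF1, beside 11.1% of all genes, and 3 were called lower, NR2E1, NR2F1 and LHX2, beside 11.2%. At day 28, 5 members were called higher, OTX1, OTX2, SP8, FEZF1 and LHX2, beside 12.4% of all genes, and 1 was called lower, NR2F1, beside 11.7%. The samples of the 2 genotypes did not overlap for 7 members at P2, OTX2 being the exception, and for 8 members at P4 and at day 28. Of all genes tested, 48.3% did not overlap at P2, 77.5% at P4 and 77% at day 28. The median log2 fold change of the members was -0.91 at P2, 0.53 at P4 and 1.15 at day 28, and that of all genes lay between 0.003 and 0.020. Because the members were chosen with these values known, nothing was read from their counts against the background.

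Changes with differentiation and with passage were described for each genotype. From P2 NPCs to day 28 in WT cells, 0 members were called higher (12.9% of all genes) and 5 were called lower (11.5%), OTX2, SP8, NR2E1, FEZF1 and LHX2. OTX2, at a log2 difference of -1.01, was called under 6 of 13 alternatives, and not without the second WT-D28 sample, without the second WT sample at P2 or after the GC and length correction. In dKO cells, 1 member was called higher, OTX1 (4.01% of all genes), and 1 lower, NR2E1 (3.14%), and for 5 of the 8 members the dKO-D28 samples overlapped those of dKO NPCs. The remaining 3 did not, beside 47.1% of all genes tested. These 2 calls became 4 without the first dKO-D28 sample and 1 without the first dKO NPC sample at P2. From P2 to P4 in WT NPCs, 1 member was called higher, OTX1 (10.3% of all genes), and 2 lower, OTX2 and FEZF1 (9.49%). OTX1 was not called there without either WT sample at P2 or without the second WT sample at P4. In dKO NPCs, 1 was called higher, OTX1 (4.61%), and 1 lower, NR2E1 (5.22%). The stages did not overlap for 7 members between P2 and day 28 in WT cells (77.5% of all genes tested), for 7 between P2 and P4 in WT NPCs (69.5%) and for 8 between P2 and P4 in dKO NPCs (64.4%). The comparisons of day 28 and of P4 with P2 share the P2 samples of the genotype, and these have the lowest totals.

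OTX2 was higher in dKO than in WT cells at P4 and day 28. It had 157 and 166 CPM in WT against 158 and 178 CPM in dKO NPCs at P2, where the genotypes overlapped. P4 samples were at 36.8 and 34.9 CPM in WT NPCs and at 130 and 131 CPM in dKO NPCs (log2 fold change 1.87, standard error 0.16). The day 28 samples were at 81.6 and 79.1 CPM in WT and at 146 and 210 CPM in dKO cells (log2 fold change 1.15, standard error 0.14). The value at day 28 was 0.87 without the second dKO-D28 sample and 0.73 after correction for GC content and length, both below 2-fold. In WT cells, the difference from P2 was -2.17 on the log2 scale at P4 and -1.01 at day 28. In dKO cells it was -0.36 and 0.09, and the dKO-D28 samples overlapped the dKO NPCs at P2. The order of the groups for OTX2 was dKO-D28, dKO P2, WT P2, dKO P4, WT-D28 and WT P4, of which the first 3 overlapped.

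OTX1, the paralog of OTX2 in the cerebral cortex, was scarce at P2 and abundant at P4. It had 6.53 and 4.47 CPM in WT NPCs at P2 and 1.501 and 0 CPM in dKO NPCs at P2, which came from 11 counts and 2 counts in all. At P4 it had 47.1 and 49.1 CPM in WT against 60.4 and 64.0 CPM in dKO NPCs. The genotypes did not overlap at P4, with a log2 fold change of 0.37 (standard error 0.60). P4 exceeded P2 by 9.24-fold in WT NPCs (95% exact interval of the counts 5.10 to 18.7) and by 85.4-fold in dKO NPCs (23.5 to 707), intervals that cover counting error only. At day 28, OTX1 had 3.72 and 2.21 CPM in WT cells, and 14.1 and 69.3 CPM in dKO cells, a 4.93-fold difference between the dKO-D28 samples. The log2 fold change at day 28 was 3.85 (standard error 0.76). It was 2.26 without the second dKO-D28 sample and 4.56 without the first.

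SP8 had the widest range of the 8 genes, 677-fold between the means of its highest and lowest groups. It had 95.3 and 108 CPM in WT against 128 and 132 CPM in dKO NPCs at P2, and 108 and 119 CPM in WT against 180 and 185 CPM in dKO NPCs at P4. At day 28, 5 counts and 1 count were left in the WT samples, or 0.6001 and 0.1006 CPM, whereas dKO-D28 cells had 205 and 269 CPM. SP8 was thus near the detection limit in WT-D28 cells and highest of all groups in dKO-D28 cells. The ratio of dKO-D28 to WT-D28 was 733 (95% exact interval of the counts 336 to 1998), and that of WT P2 NPCs to WT-D28 cells was 315 (142 to 868). The fitted log2 fold change of 9.36 at day 28 depends on the few WT counts, and it was 10.77 without the first WT-D28 sample and 8.54 without the second.

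FEZF1 was higher in dKO than in WT cells at each stage. It had 79.6 and 81.3 CPM in WT against 125 and 100 CPM in dKO NPCs at P2, so that both dKO samples were above both WT samples. In WT cells it was at 17.4 and 15.4 CPM at P4 and at 14.8 and 12.1 CPM at day 28, log2 differences from P2 of -2.30 and -2.59. In dKO cells it was at 74.0 and 69.2 CPM at P4 and at 109 and 148 CPM at day 28. The log2 fold change of dKO against WT was 0.48 (standard error 0.19) at P2, 2.13 (0.19) at P4 and 3.27 (0.17) at day 28. The dKO-D28 samples overlapped the dKO NPCs at P2, whereas in WT cells neither later stage overlapped P2. Across the 12 samples FEZF1 and OTX2 had the highest correlation of the 28 pairs of members, a Pearson's r of 0.873 in log2 CPM, with samples of a group sharing their condition.

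LHX2 differed in opposite directions at P4 and at day 28. At P2 it had 234 and 229 CPM in WT against 192 and 167 CPM in dKO NPCs (log2 fold change -0.36, standard error 0.17). By P4 it was highest in WT NPCs, at 338 and 346.5 CPM, and was at 156 and 134 CPM in dKO NPCs (log2 fold change -1.24, standard error 0.15). In day 28 cells it was lowest in WT, at 95.7 and 96.5 CPM, and was at 172 and 254 CPM in dKO cells (log2 fold change 1.15, standard error 0.15, and 0.84 without the second dKO-D28 sample). In dKO cells the 3 stages stayed between 134 and 254 CPM. In WT cells LHX2 was 1.48-fold higher at P4 than at P2, and 2.40-fold lower at day 28 than at P2.

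NR2E1 was lower in dKO than in WT cells at every stage. It had 202 and 157 CPM in WT against 67.6 and 53.0 CPM in dKO NPCs at P2, 91.9 and 95.03 against 2.81 and 2.70 CPM at P4, and 46.2 and 42.4 against 28.4 and 25.5 CPM at day 28. The log2 fold changes were -1.56 (standard error 0.17) at P2, -5.07 (0.22) at P4 and -0.72 (0.15) at day 28. The P4 dKO NPCs, with 12 and 11 counts, thus had 33.6-fold less NR2E1 than WT NPCs at P4 and 21.6-fold less than dKO NPCs at P2. Day 28 dKO cells had more NR2E1 than the P4 dKO NPCs and less than the P2 dKO NPCs. No neighbouring groups in its order, WT P2, WT P4, dKO P2, WT-D28, dKO-D28 and dKO P4, overlapped.

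NR2F1 had a level of 172 to 234 CPM in the 6 WT samples and of 48.3 to 118 CPM in the 6 dKO samples. In WT cells it had 234 and 209 CPM at P2, 172 and 199 CPM at P4 and 196 and 211 CPM at day 28. Day 28 overlapped both NPC stages, and P2 and P4 did not overlap. In dKO cells it had 106 and 54.45 CPM at P2, 52.5 and 48.3 CPM at P4 and 60.4 and 118 CPM at day 28. The log2 fold changes of dKO against WT were -1.46 (standard error 0.38), -1.88 (0.34) and -1.18 (0.31). Without the first dKO-D28 sample the value at day 28 was -0.80, below 2-fold, and without the second it was -1.75. The lowest WT sample was thus above the highest dKO sample over all stages.

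NR2F2, its close paralog, was lower in dKO than in WT NPCs at P2, higher at P4 and lower at day 28. It had 69.2 and 54.4 CPM in WT against 21.8 and 12.02 CPM in dKO NPCs at P2. At P4 it had 38.1 and 39.8 CPM in WT against 85.5 and 74.8 CPM in dKO NPCs. WT-D28 cells had 116 and 117 CPM. The dKO-D28 samples had 17.7 and 109 CPM, a 6.14-fold difference, so that 1 of them was near the WT-D28 level and the other far below it. The log2 fold changes had wide standard errors, at -1.85 (1.10), 1.04 (0.71) and -0.86 (0.64), and edgeR called NR2F2 at no stage with all samples in the fit. It was called at P2 by DESeq2, at P2 and P4 when the fit held only the samples compared, and at day 28 without the second dKO-D28 sample. The value at day 28 was -2.72 without the second dKO-D28 sample and -0.11 without the first.

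**Figure D1:**
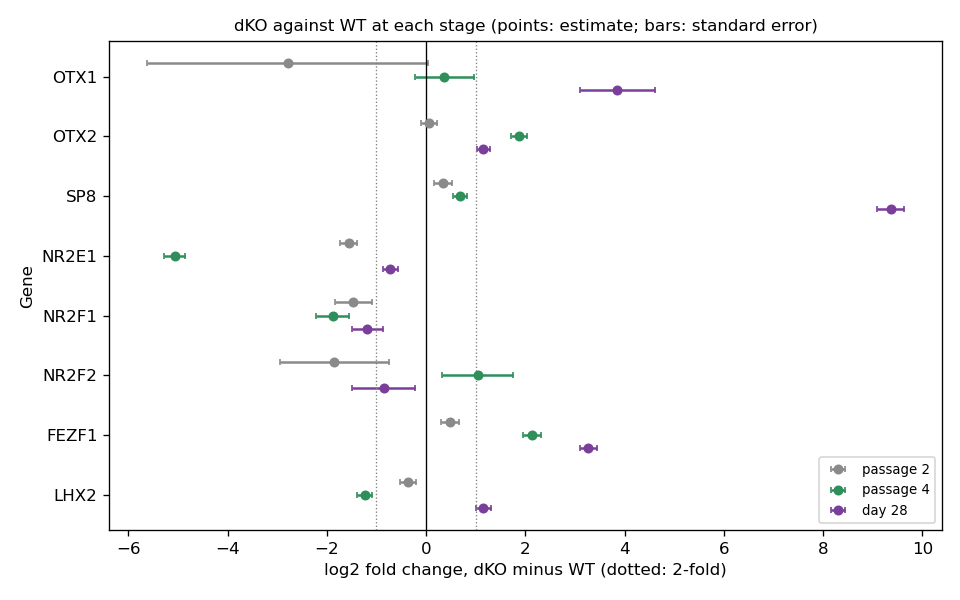
The log2 fold change of dKO against WT for each gene at P2 (grey), P4 (green) and day 28 (purple), with standard errors from the fit of 12 samples and dotted lines at 2-fold. NR2E1 at P4 stands at -5.07 and SP8 at day 28 at 9.36, and LHX2 lies on either side of 0 at P4 and day 28.

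The difference of the knockout effect between stages was computed in the same fit. From P2 to P4 the effect moved by -3.51 on the log2 scale for NR2E1 (standard error 0.30), 1.81 for OTX2 (0.23), 1.65 for FEZF1 (0.27) and -0.87 for LHX2 (0.22). From P2 to day 28 it moved by 9.02 for SP8 (0.36), 2.79 for FEZF1 (0.25), 1.52 for LHX2 (0.22), 1.10 for OTX2 (0.21) and 0.84 for NR2E1 (0.23). For NR2F1 it moved by -0.42 (0.50) and 0.28 (0.49), less than the standard error in both cases. For OTX1 and NR2F2 the standard errors were between 1.29 and 2.88.

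**Figure D2:**
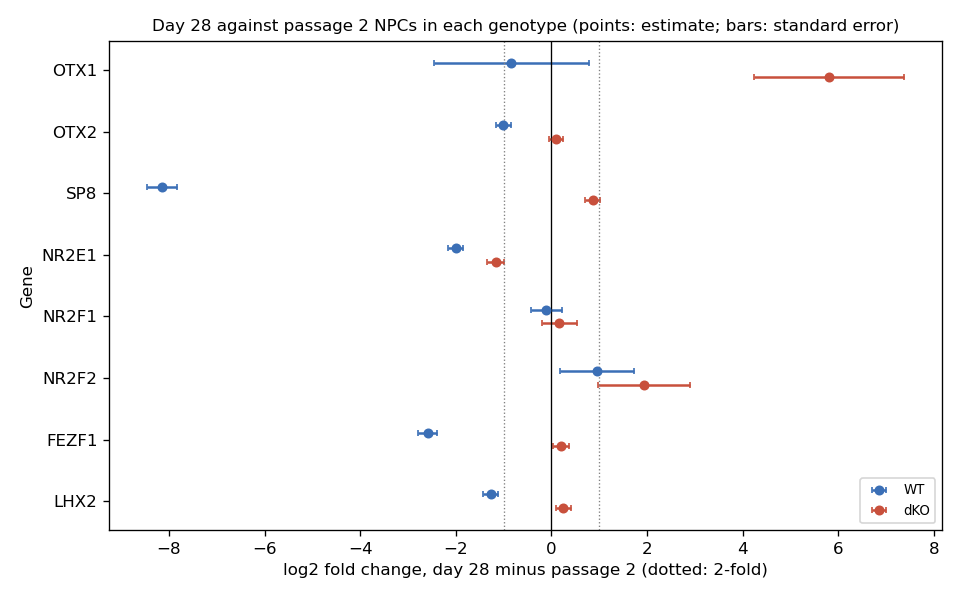
The log2 fold change from P2 NPCs to day 28 for each gene in WT (blue) and dKO (red) cells, with standard errors and dotted lines at 2-fold. In WT cells OTX2, SP8, NR2E1, FEZF1 and LHX2 lie at or below -1.01, and in dKO cells OTX2, FEZF1, LHX2 and NR2F1 lie between 0.09 and 0.25.

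Levels between genes were compared as CPM per kilobase of exon. LHX2 was the most abundant member in 5 groups, from 58.1 CPM per kb in dKO NPCs at P4 to 137 in WT NPCs at P4. In WT-D28 cells NR2F1 was first with 46.5 CPM per kb, and LHX2 was second with 38.5. SP8 was last in WT-D28 cells, at 0.094 CPM per kb, and second in dKO-D28 cells, at 63.7. NR2E1 was at 47.8 CPM per kb in WT NPCs at P2, and was last in dKO NPCs at P4 and in dKO-D28 cells, at 0.73 and 7.15.

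Within the pairs of paralogs the balance differed between groups. OTX1 was at 0.90 and 0.99 of the OTX2 level per kb in WT NPCs at P4, at 0.33 and 0.34 in dKO NPCs at P4, and at 0.068 and 0.23 in dKO-D28 cells. In the P2 NPCs and the WT-D28 cells it was at or below 0.032. NR2F2 was at 1.10 and 1.05 of the NR2F1 level per kb in dKO NPCs at P4, and between 0.14 and 0.20 in the other NPC samples. It was at 0.40 and 0.37 in WT-D28 cells and at 0.20 and 0.63 in dKO-D28 cells.

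Other members of these gene families, a list of 9 paralogs, were counted in all cases, but 3 had enough counts to be tested. At P2 none of the 3 was called, at P4 1 was called higher and 2 lower in dKO NPCs, and at day 28 1 was called higher and 0 lower. Of all genes tested, 2.59% were called higher and 1.83% lower at P2, 11.1% and 11.2% at P4, and 12.4% and 11.7% at day 28. This list and those below were chosen with results of these data known, so nothing was read from their counts against these shares. NR2F6, an orphan receptor related to NR2F1 and NR2F2, had 69.2 and 86.5 CPM in WT against 81.1 and 82.7 CPM in dKO NPCs at P2. At P4 it had 28.7 and 22.9 CPM in WT against 101 and 101 CPM in dKO NPCs (log2 fold change 1.98, Benjamini-Hochberg adjusted p = 6.7e-08 in edgeR). Day 28 samples had 48.0 and 47.6 against 89.0 and 117 CPM, a log2 fold change of 1.11 (adjusted p = 5.63e-06 in edgeR) that was 0.90 without the second dKO-D28 sample. NR2F6 was thus higher in dKO cells at P4 and day 28, where NR2F1 was lower.

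FEZF2, the paralog of FEZF1 that specifies deep-layer cortical neurons, was lower in dKO NPCs at P4, where FEZF1 was higher. It had 196 and 197 CPM in WT against 69.1 and 71.9 CPM in dKO NPCs at P4, a log2 fold change of -1.48 (adjusted p = 8.42e-07 from edgeR). In day 28 cells it had 60.9 and 58.3 CPM in WT against 72.0 and 105 CPM in dKO cells (log2 fold change 0.58, adjusted p = 0.00392), below 2-fold. LHX9, the paralog of LHX2, fell in dKO NPCs at P4 from 15.4 and 19.0 CPM to 4.68 and 3.68 CPM, a log2 fold change of -2.04 (adjusted p = 6.37e-05). The remaining paralogs were too low to be tested. SP9 had at most 6.53 CPM, SP5 at most 2.62, NR2E3 at most 3.73, CRX at most 1.21 and SP7 at most 0.720 CPM in any sample, and SP6 reached 12.5 CPM in 1 dKO-D28 sample.

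Of the 8 antisense or divergent transcripts listed for the members, 5 were found in the annotation, and 2 of them were tested. FEZF1-AS1, like FEZF1, was higher in dKO than in WT cells at P4 and day 28. It had 171 and 189 CPM in WT against 173 and 170 CPM in dKO NPCs at P2, 25.4 and 23.1 against 110 and 105 CPM at P4, and 48.5 and 43.9 against 213 and 189 CPM at day 28. Its log2 fold change was -0.07 at P2 (adjusted p = 0.853 from edgeR), 2.15 at P4 (adjusted p = 2.08e-09) and 2.12 at day 28 (adjusted p = 3.94e-10). NR2F1-AS1 was lower in dKO cells at each stage, as NR2F1 was. It had 28.7 and 28.3 against 12.8 and 7.07 CPM at P2, 30.7 and 30.8 against 8.43 and 9.56 CPM at P4, and 32.8 and 32.2 against 13.1 and 16.4 CPM at day 28. Its log2 fold changes were -1.53 (adjusted p = 0.0104), -1.77 (adjusted p = 3.41e-06) and -1.13 (adjusted p = 5.79e-05), all from edgeR. The day 28 value was -0.99 without the first dKO-D28 sample and -0.80 after correction for GC content and length, both below 2-fold. Since strand was not marked, the part of shared exonic reads in these values was not tested. OTX2-AS1, NR2F2-AS1 and LHX2-AS1 had at most 6.53 CPM.

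Other forebrain factors were described from a list of 30 genes, of which 23 were tested. In dKO against WT cells, 0 of them were called higher and 2 lower at P2, 7 higher and 10 lower at P4, and 11 higher and 3 lower at day 28. Their median log2 fold changes were -0.16, -0.46 and 0.86. The shares of all genes called higher and lower were 2.59% and 1.83% at P2, 11.1% and 11.2% at P4, and 12.4% and 11.7% at day 28. At P2 POU3F2, a neurogenic POU factor, was called lower, with a log2 fold change of -1.64 (adjusted p = 0.0244 from edgeR). Without the first dKO-D28 sample 5 forebrain factors rather than 3 were called lower at day 28. NKX2-1, a ventral forebrain and hypothalamic factor, had 23.4 and 22.1 CPM in WT against 0.469 and 0.736 CPM in dKO NPCs at P4 (adjusted p = 9.42e-08 from edgeR). In day 28 cells it had 360 and 353.5 CPM in WT against 1.94 and 0.193 CPM in dKO cells (adjusted p = 5.04e-12). EMX1, a dorsal cortical factor, fell at P4 from 101 and 93.8 CPM to 2.34 and 3.19 CPM (adjusted p = 2.56e-09). At day 28 it was higher in dKO cells, with 0.240 and 0.201 CPM in WT against 9.70 and 19.3 CPM in dKO cells (adjusted p = 4.03e-08 from edgeR). DMRTA1, expressed in the dorsal telencephalon, rose at P4 from 4.01 and 5.91 CPM to 59.7 and 65.2 CPM (adjusted p = 0.000277).

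At day 28, 2 of the named forebrain factors had no count in WT cells and were present in dKO cells. SIX6, an eye field and hypothalamic factor, had 19.6 and 29.1 CPM in dKO-D28 cells (adjusted p = 5.1e-09 from edgeR). Their mean was 78.2 times a floor of 3 counts in each WT library, which was set at raw totals rather than TMM library sizes. DMRT3 had 15.5 and 25.5 CPM, with a mean of 65.7 times this floor (adjusted p = 1.34e-08 from edgeR). These were 2 of the 3 genes of the list with the largest changes at day 28, along with NKX2-1.

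Posterior factors were mostly too low to be tested. Beside them, 2.59% of all genes tested were called higher and 1.83% lower at P2, 11.1% and 11.2% at P4, and 12.4% and 11.7% at day 28. Of 18 midbrain and isthmus factors 5 were tested, of which 0 were called at P2, 4 were called higher and 1 lower at P4, and 2 higher and 2 lower at day 28. Without the second WT-D28 sample 1 was lower at day 28. The roof plate and midbrain factor LMX1A had 3.34 and 2.31 CPM in WT against 31.9 and 30.4 CPM in dKO NPCs at P4 (adjusted p = 6.93e-06 from edgeR). In day 28 cells it had no count in WT cells and 4.36 and 11.2 CPM in dKO cells (adjusted p = 1.25e-06 from edgeR). The mean was 25 times the floor of 3 counts at raw totals. Its paralog LMX1B rose at P4 from 5.68 and 3.60 CPM to 18.7 and 26.0 CPM (adjusted p = 0.000229), and at day 28 it had 0.120 and 0.201 CPM in WT against 0.970 and 4.44 CPM in dKO cells (adjusted p = 0.000461). With 3 WT counts at day 28, the ratio of LMX1B was 18.8 at raw totals (95% exact interval 5.78 to 96.8) and 14.7 in the TMM-scaled fit. GBX2, which opposes OTX2 at the midbrain-hindbrain boundary, rose in dKO NPCs at P4 from 7.01 and 8.48 CPM to 49.0 and 54.2 CPM, a log2 fold change of 2.72 (adjusted p = 3.29e-06 from edgeR). At day 28 GBX2 had 6.84 and 7.65 CPM in WT against 5.58 and 1.93 CPM in dKO cells (log2 fold change -1.01, adjusted p = 0.0327), a call lost in DESeq2 (-0.99), without the second dKO-D28 sample (-0.38) and without the second WT-D28 sample (-0.92). PAX5 rose at P4 from 0.334 and 2.06 CPM to 6.79 and 5.15 CPM (adjusted p = 0.00427 from edgeR) and fell at day 28 from 22.2 and 18.2 CPM to 8.24 and 4.63 CPM (adjusted p = 0.000468). Of 23 hindbrain and spinal cord factors 2 were tested.

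Ligands of the forebrain signalling centres were described from a list of 21 genes, 15 of them tested. In dKO cells, 2 were called higher and 0 lower at P2, 10 higher and 1 lower at P4, and 11 higher and 2 lower at day 28, with median log2 fold changes of 0.46, 1.35 and 2.90. The shares of all genes tested were 2.59% higher and 1.83% lower at P2, 11.1% and 11.2% at P4, and 12.4% and 11.7% at day 28. Since the list was chosen with results of these data known, nothing was read from its counts against these shares. The 2 calls at P2 became 4 without the second WT sample. At P2, FGF8 of the rostral centre had 0 and 2.98 CPM in WT against 12.8 and 14.9 CPM in dKO NPCs (adjusted p = 0.0853 from edgeR), and FGF19 had 6.53 and 17.9 against 44.3 and 60.8 CPM (adjusted p = 0.0442). FGF19 fell at day 28 from 64.9 and 64.7 CPM to 21.6 and 9.46 CPM (adjusted p = 9.79e-05 from edgeR). At P4 BMP4, a dorsalizing ligand, had 0.668 and 0.257 CPM in WT against 20.1 and 17.2 CPM in dKO NPCs (adjusted p = 1.86e-05 from edgeR). Its ratio was 47.9 at raw totals (95% exact interval of the counts 16.1 to 235) and 39.9 in the TMM-scaled fit. The Wnt agonist RSPO1 rose at P4 from 7.68 and 9.50 CPM to 56.9 and 52.0 CPM (adjusted p = 0.000895) and at day 28 from 1.32 and 0.402 CPM to 33.2 and 78.9 CPM (adjusted p = 8.9e-06). RSPO3 had 0.360 and 0 CPM in WT-D28 and 12.1 and 18.3 CPM in dKO-D28 cells (adjusted p = 1.33e-08 from edgeR). Its ratio was 101 at raw totals (33.9 to 495) and 78.6 in the TMM-scaled fit. The ventralizing ligand SHH went the other way, with 2.67 and 5.91 CPM in WT against 0.234 and 0.245 CPM in dKO NPCs at P4 (adjusted p = 5.54e-05 from edgeR). At day 28 SHH had 62.4 and 63.5 CPM in WT against 0.485 and 0.193 CPM in dKO cells (adjusted p = 1.35e-10 from edgeR). Its ratio was 184 at raw totals (62.7 to 892) and 178 in the TMM-scaled fit.

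LIM domain cofactors, Groucho-type corepressors and COUP-TF partners formed a list of 24 genes, all tested. Of these, 1 was called higher and 1 lower at P2, 2 higher and 9 lower at P4, and 1 higher and 5 lower at day 28, with median log2 fold changes of -0.08, -0.43 and -0.23. The shares of all genes tested were again 2.59% higher and 1.83% lower at P2, 11.1% and 11.2% at P4, and 12.4% and 11.7% at day 28. LMO3, a LIM-only protein, fell at every stage, by 1.46 at P2 (adjusted p = 0.00307 from edgeR), 3.76 at P4 (adjusted p = 2.75e-10) and 2.08 at day 28 (adjusted p = 5.35e-08) on the log2 scale. ZFPM2 (FOG2), a cofactor that binds GATA factors and COUP-TFII, had 0 and 3.73 CPM in WT against 6.01 and 19.1 CPM in dKO NPCs at P2 (adjusted p = 0.151), and it was not called without the second dKO sample (log2 fold change 1.35). ZFPM2 fell at P4 from 26.4 and 38.3 CPM to 7.26 and 11.04 CPM (adjusted p = 0.00124 from edgeR). Its log2 fold change at day 28 was 1.28 (adjusted p = 0.0259), a call lost without the second WT-D28 sample (1.17) or the second dKO-D28 sample (0.9998). Leaving out 1 sample took the number called higher to 0 at P2, to 1 at P4 and to between 0 and 2 at day 28, and the number called lower at P2 to 2. BCL11B (CTIP2), a COUP-TF interacting protein of deep-layer neurons, fell at P4 from 92.5 and 112 CPM to 4.45 and 2.94 CPM (adjusted p = 1.71e-10 from edgeR). The corepressor TLE2 fell at P4 from 17.7 and 20.3 CPM to 1.64 and 0.736 CPM (adjusted p = 0.000468) and at day 28 from 108 and 109 CPM to 7.76 and 1.16 CPM (adjusted p = 4.24e-06). TLE5 fell at day 28 from 661 and 657 CPM to 179 and 155 CPM (adjusted p = 3.16e-09).

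Markers of other cell types moved with the same groups. Summed over 10 neuronal markers, the level was 1270 and 1466 CPM in WT against 1060 and 1140 CPM in dKO NPCs at P2. It was 4864 and 5476 CPM in WT against 905 and 928 CPM in dKO NPCs at P4, and 4342 and 4357 CPM in WT-D28 and 653 and 1197 CPM in dKO-D28 cells. Both WT groups that had less OTX2 and FEZF1 than WT P2 NPCs thus had a higher sum of neuronal markers. This did not hold for TUBB3, with means of 49.3 CPM in WT NPCs at P2, 42.2 CPM at P4 and 53.0 CPM in WT-D28 cells, where samples overlapped. The sum of 6 astrocyte markers was 1929 and 2080 CPM in WT NPCs at P4 and between 249 and 773.5 CPM in the other samples. Single genes set these sums, with SLC1A3 at 1781 and 1946 CPM in WT against 16.4 and 19.9 CPM in dKO NPCs at P4 and GJA1 at 93.5 and 87.6 against 604 and 643 CPM. The 7 mesenchymal markers summed to 1721 and 1741 CPM in dKO NPCs at P4, to 861 and 1039 CPM in dKO NPCs at P2, and to between 151 and 406 CPM in the other samples. Collagens made up most of this sum in dKO NPCs at P4, with COL1A1, COL1A2 and COL3A1 at means of 519, 805 and 355 CPM. PDGFRB and DCN were lower there than in WT NPCs at P4, with means of 34.1 against 41.0 and 0.948 against 4.64 CPM. LUM and TWIST1 were higher, with means of 13.7 against 8.12 and 3.48 against 0.334 CPM. The 6 neural crest markers summed to at most 73.3 CPM, the 6 oligodendrocyte lineage markers to at most 71.4, the 5 choroid plexus markers to at most 23.1 and the 4 endothelial and blood markers to at most 3.75 CPM. Neural crest sums were 10.7 and 8.22 CPM in WT against 61.6 and 61.3 CPM in dKO NPCs at P4. At day 28 they were 3.24 and 3.22 against 24.7 and 73.3 CPM, and at P2 the genotypes overlapped. Choroid plexus sums were 4.34 and 2.57 CPM in WT against 21.3 and 23.1 CPM in dKO NPCs at P4. The 6 pigment epithelium markers summed to between 332 and 803 CPM, and TYR was at 0 in WT and dKO NPCs at P2 and in dKO NPCs at P4. BEST1 alone set this sum, with 303 to 786 CPM, and the other markers of the list had at most 99.4 CPM (PMEL in a dKO-D28 sample). The part of these cell types in the values of the 8 genes was not tested, and in bulk RNA fewer cells of a type and less RNA per cell cannot be told apart.

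The genes whose log2 CPM followed each member most closely over the 12 samples were listed as a description. For OTX2 they were ASXL1, CCND1 (cyclin D1) and PLAGL2, with a Pearson's r of 0.991, 0.986 and 0.983. For FEZF1 they were the long noncoding RNA FIRRE (0.986), TENM3 (0.984) and ADAMTS18 (0.983), and for SP8 FLRT2 (0.985), TBC1D1 (0.985) and SWAP70 (0.977). For NR2E1 they included GPRC5B (0.989) and TMEM131L (0.967). NR2F1 was followed by its antisense gene NR2F1-AS1 (0.956), MACIR (0.937) and SMAD1 (0.928), and LHX2 by PSAT1 (0.984), GLUL (0.974) and SIPA1L1 (0.966). NR2F2 was followed by PSPN (0.960), NFYC-AS1 (0.900) and NUMA1 (0.893), and OTX1 by MAVS (0.951), PCDHA6 (0.931) and CA8 (0.923). With means of the 6 groups these correlations were between 0.929 and 0.996. Among the members themselves, NR2E1 and NR2F1 had an r of 0.767, SP8 and FEZF1 of 0.710 and SP8 and LHX2 of 0.677, and the lowest was that of NR2F1 and FEZF1, at -0.558. Samples of a group share their condition and the groups differ in depth, so these values describe 6 conditions rather than 12 independent points.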

How the data were processed

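RNA was extracted with TRIzol and made into TruSeq libraries, and the reads were mapped to hg38. The authors deposited raw counts of reads per Ensembl gene from htseq-count, with neither normalization nor filtering. Submitters' processing notes name HISAT2 2.0.4, SAMtools 1.3.1, HTSeq 0.6.0 and DESeq 1.18.1; the counting annotation and strand setting are not given in the sources used here. Strand-blind counts can mix a gene with its antisense partner. GENCODE v44 named 98.7% of the 58302 genes, holding 99.8% of the counts.

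Counts were normalized with TMM in edgeR 4.0.16 (R 4.3.3), giving CPM. A robust quasi-likelihood fit of 6 group means covered the 13454 genes with mean counts of 20 or above. Fold changes above 2 at unadjusted p below 0.05 were called, after the thresholds of the study's methods, and Benjamini-Hochberg adjusted p-values cover all genes tested. With 2 samples against 2, an exact two-sided permutation test cannot go below 0.333, so calls rest on the spread shared between genes and groups. Standard errors are the log2 fold change divided by the square root of F. The fit was tested on simulated counts. Depth sets precision: P2 samples had 756942 to 1438807 counts, the others 3174410 to 10601172. Intervals and floors cover counting error only, since reads carried no molecular identifiers. Floors, and the ratios with intervals of genes other than the members, were scaled with raw totals.

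Members and lists were chosen with earlier results of these data known. Named were all members, the targeted genes, paralogs and antisense genes with a count, and from each other list the 3 called genes with the largest change and separate groups in each dKO and WT comparison. For each member, the 3 genes with the highest correlation of log2 CPM (prior count 2) were named. The alternatives tried were DESeq2 1.42.0, its size factors, adjusted calls, only the samples compared, other count filters, GC and length correction, a replicate block and leaving out each sample. Some genes that this rule names are not reported here.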

Additional observations from a re-analysis of the deposited data

Results flagged for a closer look

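For 3 members, both dKO samples were above both WT samples at one stage and below them at another. This difference of directions was not tested, because the members were chosen with their values known. The log2 fold change of dKO against WT moved for OTX1 by 3.16 from P2 to P4 and by 6.64 from P2 to day 28, where dKO NPCs at P2 had 2 counts. For NR2F2 it moved by 2.89 from P2 to P4 and by -1.90 from P4 to day 28, and the dKO-D28 samples differed by 6.14-fold. For LHX2 it moved by 1.52 from P2 to day 28 and by 2.39 from P4 to day 28.

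For other named genes, the knockout effect differed between stages in the contrast of edgeR's fit, at an adjusted p below 0.05 over all genes and a difference of more than 1 on the log2 scale. From P2 to P4 the effect moved downward for the forebrain and neuronal factors NKX2-1 by -5.73 (adjusted p = 1.15e-06 from edgeR), EMX1 by -4.76 (0.0355), BCL11B by -3.73 (0.00571) and POU3F2 by -1.65 (0.0192). It moved downward also for ZFPM2 by -4.25 (0.00306), LMO3 by -2.30 (5.95e-05), TLE5 by -1.47 (4.39e-05), SHH by -3.67 (0.00623) and FGF19 by -2.78 (0.00694). It moved upward for SIX6 by 4.21 (adjusted p = 0.00055 from edgeR), BMP4 by 4.19 (0.00905), LMX1B by 3.45 (0.0394), FEZF1-AS1 by 2.23 (5.77e-07) and NR2F6 by 1.93 (3.9e-05).

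From P2 to day 28 the effect moved upward for SIX6 by 10.55 (adjusted p = 2.35e-07 from edgeR), EMX1 by 6.25 (0.0102), RSPO3 by 5.70 (0.024), LMX1B by 5.04 (0.00969), RSPO1 by 4.81 (0.00993), BMP4 by 3.83 (0.00414), DMRTA1 by 3.31 (0.0408), FEZF1-AS1 by 2.19 (1.65e-07), FEZF2 by 1.25 (0.00268) and NR2F6 by 1.06 (0.00242). It moved downward for NKX2-1 by -9.03 (2.11e-10), SHH by -7.09 (5.74e-06), TLE2 by -4.90 (0.0266), FGF19 by -4.05 (0.000164), PAX5 by -3.58 (0.0219) and TLE5 by -2.19 (5.39e-07). SIX6 had no count in WT-D28 cells, and EMX1, PAX5, BMP4, LMX1B, RSPO3 and SHH had 3 counts or fewer in a group, so the size of these differences depends on the prior count. The number of genes tested was 13454 in each contrast, and both contrasts share the P2 samples.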

How the results depend on the processing

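With 2 samples a group, and the P2 samples the shallowest, the fit pools the spread over genes, and changes near 2-fold and genes with few counts were the least certain. The count filter moved the number of genes called most. The main counts of dKO against WT were 595 at P2, 3001 at P4 and 3250 at day 28. When genes with any count in any of the samples were kept (34982 genes tested) they were 1177, 5131 and 6037, and when 10 or more counts were required of each sample (9967 genes) they were 199, 1656 and 1882. The counts of day 28 against P2 were 3281 in WT and 961 in dKO cells, and became 5609 and 2684 with the first filter and 1909 and 350 with the second. Those of P4 against P2 were 2663 and 1322, and became 4482 and 2939, and 1461 and 588. More or fewer genes are tested by construction, and the stricter filter left out OTX1 and SP8. Calls at an adjusted p below 0.05 numbered 199 at P2. Leaving out each P2 sample gave 458 to 927 calls, the lowest without the first and the highest without the second WT sample.

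Samples with the same number did not deviate together, with correlations of -0.0555 to 0.182 over 15 pairs of groups and a mean of 0.0177, so the numbers do not pair the samples. With a replicate block, the calls of dKO against WT were 615, 3012 and 3241, those of day 28 against P2 were 3284 and 960, and those of P4 against P2 were 2666 and 1332. Blocked together with a GC and length correction, they were 612, 2919 and 3287, 3137 and 930, and 2634 and 1251.

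At P2, 2 members were called, and 4 by DESeq2 or with only the samples compared, and 1 after adjustment. The members kept their sign under the alternatives tried in the comparison of dKO with WT, except OTX2 at P2 (11 of 12 alternatives). From P2 to day 28 in dKO cells, OTX2 kept its sign in 9 of 12, NR2F1 in 10 and FEZF1 and LHX2 in 11 each. None of these 5 differences was called. For the other named genes, 538 values came from alternatives that left out no sample, and 256 from leaving out 1 sample. Of the first kind 523, and of the second kind 248, were called or not called as in the main fit. Direction was compared only for values called in the main fit, and none of these reversed. Of the first kind 3 gained a call and 12 kept their direction and lost it, and of the second kind 8 did so, among them values of ZFPM2 and FGF8 at P2 and of NR2F6, NR2F1-AS1, GBX2 and ZFPM2 at day 28.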
